A study of Mus musculus with 9 samples.

Results

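Single-nucleus RNA sequencing of mouse hearts was used to describe 8 genes of the endothelin and angiotensin systems, which were chosen by symbol for their place in these pathways and not by any measured value. The 8 genes, all found among the 23747 genes measured, were Edn1, which encodes the precursor of endothelin-1, Ece1, the endothelin-converting enzyme, Ednra and Ednrb, the 2 endothelin receptors, Agt, angiotensinogen, Ace, the angiotensin-converting enzyme, Agtr1a, a type 1 angiotensin II receptor, and Nos3, the endothelial nitric oxide synthase. The study asked how pretreatment with SBP, a Chinese herbal pill that the sample labels name MUSKARDIA, alters the cells of the heart after myocardial ischemia/reperfusion (I/R). Nuclei came from 9 C57BL/6 mice of 8 weeks, 3 per group and 1 library per mouse, and the tissue was taken from below the ligation. Sham mice were given vehicle by gavage for 7 days and had the needle passed without ligation of the left anterior descending coronary artery (LAD). I/R mice were given the same vehicle for 7 days, then 30 min of LAD ligation and 24 h of reperfusion. SBP mice were given SBP for 7 days before the same 30 min of ligation and 24 h of reperfusion, so the design held no mice with SBP and no ligation. All values describe 1 time after reperfusion, and drug effects can be read only in ligated hearts.

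Endothelin-1 is a strong vasoconstrictor peptide that endothelial cells make from a longer precursor cut by ECE1. It contracts vascular smooth muscle through the A receptor, and the B receptor on endothelial cells clears it and triggers release of nitric oxide, which NOS3 makes. Angiotensinogen comes mainly from the liver and is cut by renin and then by ACE to angiotensin II, which acts through the type 1 receptor on vessels, heart muscle and fibroblasts.

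The libraries held 49171 nuclei, 4576 to 6418 per mouse, with 10329520 to 18205985 unique molecular identifiers (UMIs) per mouse and a median of 1540 to 2031 UMIs per nucleus. Nuclei were clustered without the 8 genes and clusters were named from marker genes, so the cell types are ones they resembled and not the study's own annotation. After removal of 85 marked doublets there were 14124 fibroblast, 13456 endothelial, 10533 cardiomyocyte, 9561 myeloid, 771 T cell, 336 B cell, 198 smooth muscle cell and pericyte, and 107 Schwann cell nuclei. Among endothelial nuclei, 7973 resembled capillary, 3801 endocardial, 858 lymphatic and 754 arterial endothelium. A cluster led by Lsamp, of 71 nuclei before doublet removal, was left unnamed. No cluster was named venous. The endocardial cluster scored 0.72 on the venous markers against 1 on its own, so venous nuclei, if present, were not told apart. No 2 libraries shared more than 14 cell barcodes. Levels are UMIs summed per mouse and cell type and given as counts per 1000000 UMIs of that sum (CPM), scaled within each type. Levels within single clusters of a type are CPM without this scaling. The fits within clusters used scaled values, so their fold changes can differ from the ranges printed beside them.

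Of the 4 genes that passed the test in some cell type, Edn1, Ednrb and Ace have a promoter in the RefSeq table for build GRCm38.p6, and these 3 promoters are shown because the comparisons turn on those genes. Each runs from 250 bases before to 50 bases after an annotated start, 5′ to 3′ on the gene's own strand. Capitals mark every match, on either strand, to the motifs searched: TGANTCA for AP-1, TGACTAA as an AP-1 variant, AGATAA for GATA factors, ACGTG as the core of the hypoxia response element and TATAAA for the TATA box.
Edn1, chr13:42301226-42301525, plus strand: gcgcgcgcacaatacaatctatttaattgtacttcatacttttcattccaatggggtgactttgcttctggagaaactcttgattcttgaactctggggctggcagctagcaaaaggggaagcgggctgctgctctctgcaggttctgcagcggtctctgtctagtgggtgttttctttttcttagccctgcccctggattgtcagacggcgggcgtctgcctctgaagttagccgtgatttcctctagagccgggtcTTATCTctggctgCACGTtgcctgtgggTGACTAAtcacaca
Ednrb, chr14:103843652-103843951, minus strand: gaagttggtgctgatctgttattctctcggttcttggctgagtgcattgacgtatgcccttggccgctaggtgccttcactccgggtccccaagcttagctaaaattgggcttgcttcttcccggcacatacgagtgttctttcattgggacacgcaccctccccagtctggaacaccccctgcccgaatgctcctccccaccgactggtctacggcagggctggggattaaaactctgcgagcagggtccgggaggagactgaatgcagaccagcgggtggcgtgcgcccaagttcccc
Ace, chr11:105967698-105967997, plus strand: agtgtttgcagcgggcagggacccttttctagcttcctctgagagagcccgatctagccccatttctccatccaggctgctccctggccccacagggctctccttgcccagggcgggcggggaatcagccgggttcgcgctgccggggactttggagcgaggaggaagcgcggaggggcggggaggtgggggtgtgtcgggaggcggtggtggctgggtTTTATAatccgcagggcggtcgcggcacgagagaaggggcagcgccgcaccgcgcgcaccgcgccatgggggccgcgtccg
The Edn1 window held a GATA match 8 bases, a hypoxia response core 21 bases and the AP-1 variant 36 bases after the annotated start. The Ace window held a TATA match on the opposite strand 31 bases before its start, and the Ednrb window held no match to these letters. Another Ace promoter in the RefSeq table, chr11:105974939-105975238, is not shown and held no match. Of 32851 promoters in the table, 7.81% held AP-1, 2.35% the AP-1 variant, 11.2% GATA, 19.6% the hypoxia core and 13.6% TATA. A match is a description and not a binding site. The genes lie in GRCm38 at chromosome 13, 42301476 to 42307990 (Edn1), chromosome 4, 137862237 to 137965229 (Ece1), chromosome 8, 77663031 to 77724464 (Ednra), chromosome 14, 103814625 to 103844402 (Ednrb), chromosome 8, 124556534 to 124569706 (Agt), chromosome 11, 105967945 to 105989964 (Ace), chromosome 13, 30336441 to 30382867 (Agtr1a) and chromosome 5, 24364810 to 24384474 (Nos3), as annotated in GENCODE.

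The 8 genes divided by cell type in the way the pathways are usually drawn for the ligand, its enzyme and nitric oxide synthase, and less so for the receptors. The ligand gene Edn1, the enzyme gene Ece1 and Nos3 had their highest median over mice in endothelial nuclei, Ednra and Agtr1a had theirs in cardiomyocytes over all mice, Ednrb in endothelial nuclei with myeloid nuclei next, and Ace in fibroblasts with endothelial nuclei next. These orders are descriptions with no test, counts at the 3′ end of transcripts are not per length and cannot rank one gene against another, and scaling was done within each type.

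**Figure D1:**
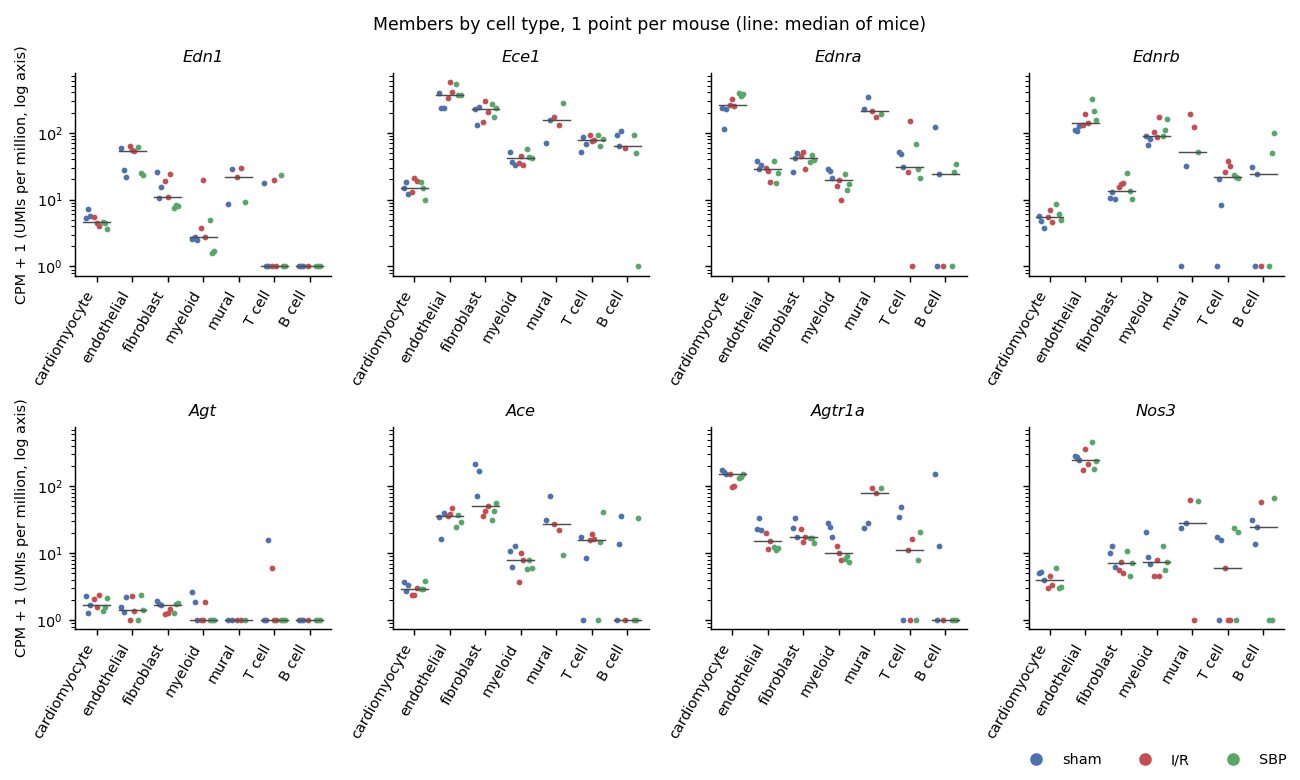
Level of each of the 8 genes (CPM + 1, log axis) in each cell type, 1 point per mouse and a line at the median of mice, coloured by group. The mural column holds smooth muscle cells and pericytes from 5 mice, and Schwann cells are left out because 1 mouse had 20 nuclei or more; over all mice the medians of Ednra and Agtr1a are highest in cardiomyocytes and that of Nos3 in endothelial nuclei, the Ednra values of sham mice in the mural column, 228 and 343 CPM, reach higher than those in cardiomyocytes, 111 to 236 CPM, and Agt is near 0 throughout.

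Edn1 had a median of 51.8 CPM in endothelial nuclei (range over 9 mice 20.9 to 61.7) against 9.89 CPM in fibroblasts (6.46 to 24.7), and the 2 ranges overlapped. Smooth muscle cells and pericytes lay between these medians, at 20.7 CPM (7.59 to 28.6, 5 mice). In cardiomyocytes it lay at 3.62 CPM (2.64 to 6.33), below every fibroblast value. In myeloid nuclei it lay at 1.72 CPM (0.61 to 18.8), a range that reached into that of fibroblasts. The myeloid means were 1.59, 7.74 and 1.76 CPM in sham, I/R and SBP mice, on 5, 71 and 8 UMIs, and were not fitted. Within endothelium the order was arterial, with a median of 146 CPM (70.8 to 213), then endocardial at 57.1 CPM (33.0 to 109), capillary at 17.8 CPM (2.48 to 37.2) and lymphatic at 4.61 CPM (0 to 13.9). Each neighbour in that order overlapped the next, but arterial and capillary values did not overlap.

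Ece1 had a median of 362 CPM in endothelial nuclei (233 to 564), 229 CPM in fibroblasts (131 to 299) and 152 CPM in smooth muscle cells and pericytes (68.3 to 275, 5 mice), each range overlapping the next. Cardiomyocytes were lowest at 13.98 CPM, below every myeloid value. Among endothelial subtypes, lymphatic nuclei at 634 CPM (436 to 710) and endocardial nuclei at 605 CPM (338 to 932) overlapped each other and lay above every arterial value (122 to 297) and capillary value (109 to 221).

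Of the receptors, Ednra had a median of 257 CPM in cardiomyocytes (111 to 385) and 207 CPM in smooth muscle cells and pericytes (172 to 343), overlapping ranges that lay above every fibroblast value (25.1 to 50.9). In the sham mice alone the order was the other way, with 228 and 343 CPM in smooth muscle cells and pericytes and 111 to 236 CPM in cardiomyocytes, ranges that overlapped. In the endothelial subtypes its median was 22.8 to 30.2 CPM, and it reached 70.6 CPM in an arterial and 56.2 CPM in a capillary sum. Ednrb went the other way: endocardial nuclei had a median of 259 CPM (166 to 546), above every capillary value (49.6 to 133), and cardiomyocytes had 4.48 CPM (2.81 to 7.61). Myeloid nuclei held Ednrb at 87.7 CPM (65.2 to 171). Over the mice of a group there were 200 to 495 Ednrb UMIs per 1000 UMIs of 8 endothelial markers in myeloid nuclei, against 17.0 to 30.2 in endothelial nuclei. The part of endothelial transcripts in the myeloid Ednrb values was not tested.

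Agtr1a had a median of 150 CPM in cardiomyocytes (96.6 to 176), above all 5 values of smooth muscle cells and pericytes (22.8 to 93.1), which in turn lay above the 1 Schwann cell value. In fibroblasts it was 16.4 CPM (13.2 to 33.1). The near-identical gene Agtr1b had at most 4 UMIs in any cell type, but how the counting split reads between the pair is not stated. Ace had a median of 50.5 CPM in fibroblasts (30.9 to 214) and 34.7 CPM in all endothelial nuclei (15.5 to 46.7), while arterial endothelium alone had 159 CPM (34.9 to 198), capillary 44.7 CPM and endocardial 12.98 CPM. Nos3, in contrast, was spread over the blood vessel and endocardial nuclei, at 389 CPM in arterial (189 to 847), 365 CPM in endocardial (216 to 662) and 186 CPM in capillary nuclei (159 to 230), with lymphatic nuclei below all of these at 93.0 CPM (53.9 to 148). Outside endothelium, Nos3 did not exceed 65.2 CPM in any mouse, a B cell value that rests on few UMIs.

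**Figure D2:**
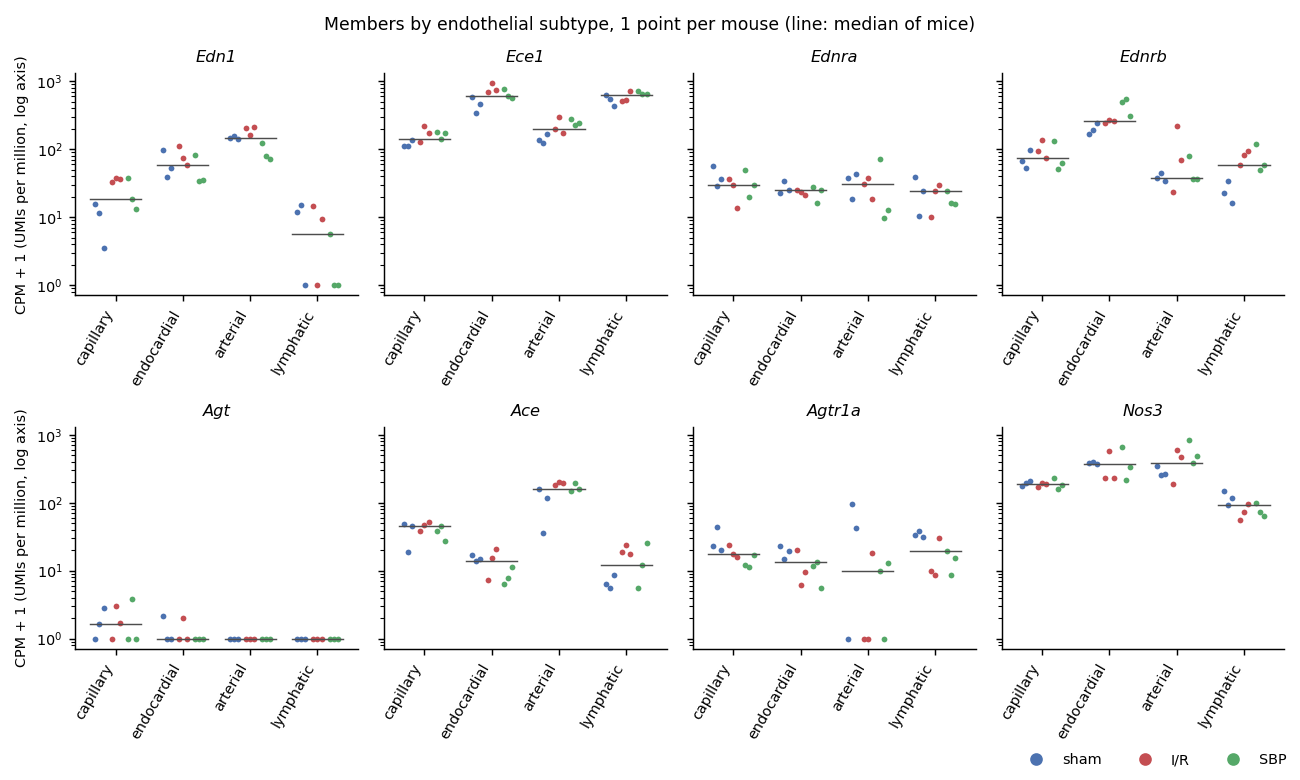
Level of each gene (CPM + 1, log axis) in 4 endothelial subtypes, 1 point per mouse and a line at the median of 9 mice. Edn1 and Ace are highest in arterial nuclei, Ednrb in endocardial nuclei, and Ece1 in endocardial and lymphatic nuclei.

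Agt, the substrate at the head of the angiotensin pathway, was at the limit of detection. There were 49 Agt UMIs among 59538096 in cardiomyocytes and 17 among 31301406 in fibroblasts, with a median of 0.70 CPM in each. None was seen in arterial or lymphatic endothelium, smooth muscle cells and pericytes or B cells, and in arterial nuclei a count of 0 allows a level of up to 17.0 to 39.8 CPM per mouse (3 UMIs, counting error only). Agt passed the filter on low counts in no cell type, so no comparison between groups was made for it.

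Groups were compared with limma on log2(CPM + 1) of the sums per mouse, with p-values adjusted over all genes of a cell type by the Benjamini-Hochberg method. A gene was called where the adjusted p was at most 0.05 and the absolute log2 fold change above 0.25. Of 144 tests of the genes in 8 cell types or subtypes and 3 contrasts, 7 were called, all against sham. The tests are not independent, as all endothelial nuclei contain the capillary, endocardial and arterial nuclei and the contrasts share mice. In cardiomyocytes 0 of 7 genes tested were called in I/R against sham, SBP against I/R or SBP against sham, where 0.815%, 0% and 0.132% of all 12879 genes were called. In all endothelial nuclei 0, 0 and 1 of 7 were called, against 3.28%, 0% and 2.08% of all genes. In fibroblasts 1, 0 and 1 of 7 were called, against 11.7%, 0% and 6.14%, and in myeloid nuclei 1, 0 and 1 of 6, against 17.6%, 0% and 12.5%. In smooth muscle cells and pericytes 0 of 3 were called in any contrast, against 0%, 0% and 0% of 3007 genes. In capillary nuclei 1, 0 and 0 of 7 were called, against 4.35%, 0% and 2.5%, in endocardial nuclei 0, 0 and 1 of 7, against 0.863%, 0% and 1.01%, and in arterial nuclei 0, 0 and 0 of 4, against 1.96%, 0% and 1.25%. In myeloid nuclei, and in fibroblasts for I/R against sham, 1 call among 6 or 7 genes was near the share of all genes called. For SBP against sham in fibroblasts it was above the 6.14% of all genes, though 1 is the smallest count above 0. Called or not, 34 of the 144 tests, pooled over the 3 contrasts, had an unadjusted p below 0.05 by limma. Of these, 4 were among the 48 tests of SBP against I/R, and the rest were against sham, more in SBP than in I/R mice. Over all genes it was 19.3%, 4.05% and 16.8% of 75289 tests in I/R against sham, SBP against I/R and SBP against sham. The share of these genes was above that of all genes in each contrast, by the widest margin in SBP against sham, in tests that are not independent. Below, limma p-values set each change against a spread between mice that is pooled over the 3 groups and drawn toward that of other genes. Each group had 3 mice, except in smooth muscle cells and pericytes. The smallest p that a two-sided exact permutation test of 3 against 3 mice can give is 0.1.

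After I/R, Edn1 rose in capillary endothelium. In capillary nuclei the level of Edn1 was 14.8, 10.7 and 2.48 CPM in the sham mice, 31.7, 37.2 and 35.5 CPM in the I/R mice and 36.9, 17.8 and 12.4 CPM in the SBP mice. All 3 I/R mice were above all 3 sham mice, and the SBP mice spread from the sham range to the I/R range. The change from sham to I/R was 2.05 on the log2 scale (SE 0.52, limma adjusted p = 0.0471), and from sham to SBP it was 1.30 on the log2 scale (SE 0.52, limma adjusted p = 0.24), which did not pass. The call rested on 223 Edn1 UMIs over 9 mice and did not hold without sham 2 (adjusted p = 0.0824), sham 3 (0.0865), I/R 1 (0.0621), I/R 2 (0.166), I/R 3 (0.0894) or SBP 2 (0.0705), while the log2 change stayed above 0 in all of these and was 1.40 without sham 3. It also did not hold with only the 6 mice compared (0.0523), with high-scoring nuclei removed (0.0818) or with types from marker scores (0.114). The log2 changes under these settings were 2.05, 2.03 and 2.25.

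In arterial endothelium, where its level was highest, Edn1 did not pass the test in any contrast. In arterial nuclei the level of Edn1 was 146, 157 and 142 CPM in the sham mice, 204, 162 and 213 CPM in the I/R mice and 124, 79.5 and 70.8 CPM in the SBP mice. The groups did not overlap in any pair, with I/R above sham and sham above SBP. The changes were 0.37 on the log2 scale (SE 0.33, limma adjusted p = 0.663) for I/R against sham, -1.10 on the log2 scale (SE 0.33, limma adjusted p = 0.999) for SBP against I/R and -0.74 on the log2 scale (SE 0.33, limma adjusted p = 0.35) for SBP against sham. Each mouse had 9 to 37 Edn1 UMIs here. With types from marker scores, the change from sham to I/R was 1.28 (adjusted p = 0.0361) and was called. Over all tested arterial genes the median log2 change was 0.09, 0.04 and 0.13 in I/R minus sham, SBP minus I/R and SBP minus sham.

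Endocardial nuclei showed no such separation. In endocardial nuclei the level of Edn1 was 94.7, 38.1 and 51.2 CPM in the sham mice, 109, 73.0 and 57.1 CPM in the I/R mice and 80.3, 33.0 and 33.8 CPM in the SBP mice. The 3 groups overlapped. The same held for all endothelial nuclei together, at 0.77 on the log2 scale (SE 0.41, limma adjusted p = 0.37) for I/R against sham. In fibroblasts Edn1 lay between 6.46 and 7.42 CPM in the SBP mice and between 9.46 and 24.7 CPM in the sham and I/R mice. That difference was -1.02 on the log2 scale (SE 0.35, limma adjusted p = 0.115) for SBP against sham, and was called without sham 2 (adjusted p = 0.0472).

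Ece1 had a positive change from sham to I/R in each endothelial subtype tested, and none passed. In endocardial nuclei the level of Ece1 was 585, 338 and 466 CPM in the sham mice, 704, 932 and 733 CPM in the I/R mice and 780.5, 605 and 562 CPM in the SBP mice. In endocardial nuclei all I/R mice were above all sham mice, at 0.79 on the log2 scale (SE 0.21, limma adjusted p = 0.104), and SBP against sham was 0.51 on the log2 scale (SE 0.21, limma adjusted p = 0.336). In capillary nuclei the change from sham to I/R was 0.52 on the log2 scale (SE 0.19, limma adjusted p = 0.155) and was called without I/R 1 (0.73, adjusted p = 0.0283), and in arterial nuclei it was 0.62 on the log2 scale (SE 0.30, limma adjusted p = 0.359). Over all endothelial nuclei the values were 394, 236 and 233 CPM in the sham mice, 333, 564 and 412 CPM in the I/R mice and 532, 362 and 361 CPM in the SBP mice, and the groups overlapped. Fibroblasts, the other main site of Ece1, gave 0.09 on the log2 scale (SE 0.30, limma adjusted p = 0.894).

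Ednra, the receptor through which endothelin-1 acts on muscle, was ordered sham, I/R, SBP in cardiomyocytes. In cardiomyocytes the level of Ednra was 236, 111 and 224 CPM in the sham mice, 257, 321 and 254 CPM in the I/R mice and 385, 349 and 382 CPM in the SBP mice. Every I/R mouse was above every sham mouse and every SBP mouse above every I/R mouse. The change was 1.04 on the log2 scale (SE 0.26, limma adjusted p = 0.125) for SBP against sham, 0.61 on the log2 scale (SE 0.26, limma adjusted p = 0.323) for I/R against sham and 0.43 on the log2 scale (SE 0.26, limma adjusted p = 1.00) for SBP against I/R, so none passed. Two-sided exact permutation tests of SBP against sham gave the smallest p possible, 0.1.

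Cardiomyocyte nuclei fell into a cluster led by Gm17428 and Mhrt and a cluster led by Fstl4 and Myh7, which had 495 nuclei from sham, 2402 from I/R and 2651 from SBP mice. No change of Ednra passed the test in either cluster. In the Fstl4-led cluster it ranged from 124 to 240 CPM in sham, 231 to 341 CPM in I/R and 346 to 390 CPM in SBP mice, with 1.24 on the log2 scale (SE 0.29, limma adjusted p = 0.0991) for SBP against sham. In the Gm17428-led cluster it ranged from 119 to 231 CPM in sham, 253 to 305 CPM in 2 I/R mice and 338 to 361 CPM in 2 SBP mice. The change there was 0.88 on the log2 scale (SE 0.32, limma adjusted p = 0.779) for SBP against sham. The SBP range lay above the sham range in each cluster, and the sham and I/R ranges of the Fstl4-led cluster overlapped.

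In smooth muscle cells and pericytes, the usual target of endothelin-1, Ednra was 228 and 343 CPM in 2 sham mice, 207 and 172 CPM in 2 I/R mice and 192 CPM in 1 SBP mouse, the only mice with 20 nuclei or more. The change was -0.57 on the log2 scale (SE 0.37, limma adjusted p = 0.993) for I/R against sham. In the fibroblast cluster led by Tnc and Postn, genes of activated fibroblasts, Ednra ranged from 56.9 to 77.8 CPM in I/R and 41.0 to 81.7 CPM in SBP mice, above the 20.4 to 37.4 and 24.4 to 33.1 CPM of the Lvrn-led cluster in the same mice. The sham mice had 2 to 4 nuclei each in the Tnc-led cluster, and over all fibroblasts the change was 0.10 on the log2 scale (SE 0.27, limma adjusted p = 0.86) for I/R against sham. These clusters were made from the same nuclei, so that difference is a description.

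**Figure D3:**
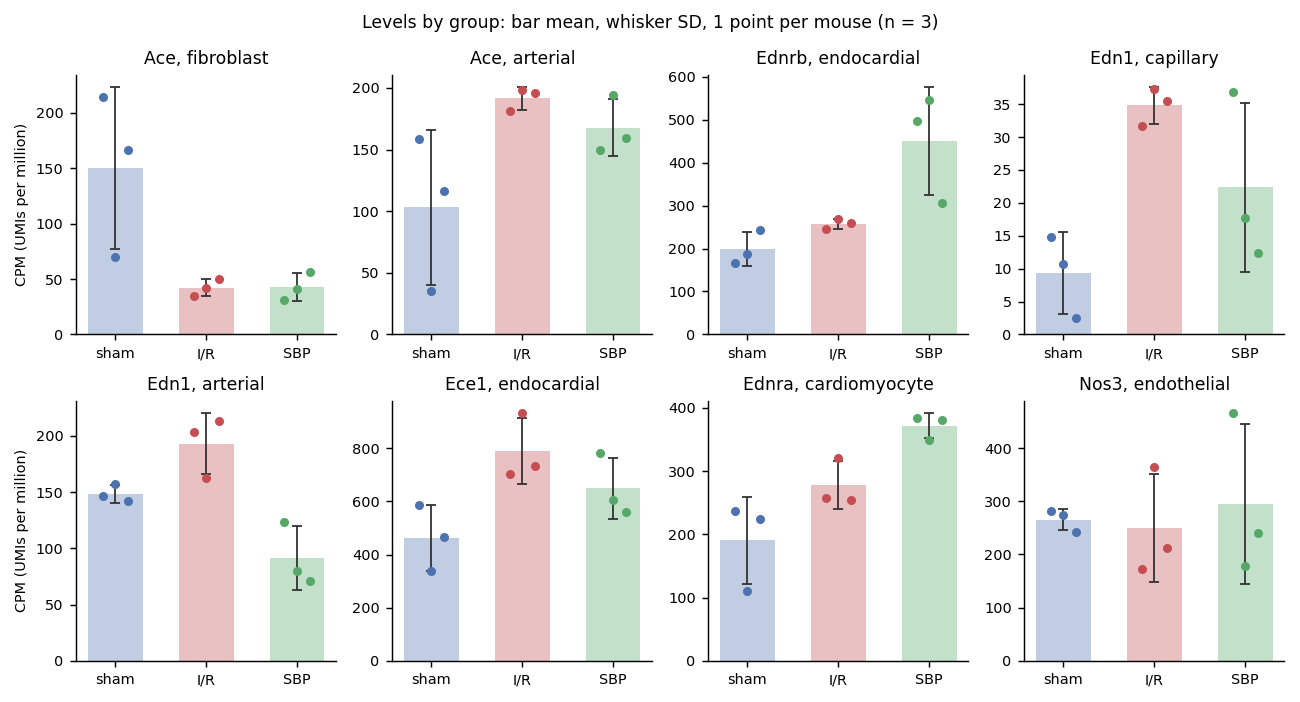
CPM per mouse in sham, I/R and SBP hearts for 8 pairs of a gene and a cell type; bars start at 0 and show the mean of 3 mice, whiskers the SD and points the mice. Ace in fibroblasts is lower in I/R and SBP than in sham mice, Ednrb in endocardial nuclei is highest in SBP mice, and Ednra in cardiomyocytes does not overlap between groups.

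Ednrb, the B receptor, rose in endocardial nuclei of SBP mice against sham. In endocardial nuclei the level of Ednrb was 166, 187 and 242 CPM in the sham mice, 245, 268 and 259 CPM in the I/R mice and 497, 546 and 307 CPM in the SBP mice. The 3 groups did not overlap, with sham lowest and SBP highest, and SBP 3 was nearest to the I/R mice. The change was 1.15 on the log2 scale (SE 0.21, limma adjusted p = 0.015) for SBP against sham, 0.39 on the log2 scale (SE 0.21, limma adjusted p = 0.457) for I/R against sham and 0.76 on the log2 scale (SE 0.21, limma adjusted p = 0.751) for SBP against I/R. Only SBP against sham was called, and that call did not hold without sham 1 (adjusted p = 0.0588), sham 2 (0.0828), SBP 1 (0.0658) or SBP 2 (0.0712), with the replicate block (0.0563) or with types from marker scores (0.0835). In the same endocardial nuclei the summed cardiomyocyte markers were 5670 to 8858 CPM in sham, 2632 to 5330 CPM in I/R and 1980 to 2542 CPM in SBP mice, and the endothelial markers 6295 to 8255, 7789 to 8330 and 8401 to 9538 CPM. Their part in the Ednrb values was not tested.

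Over all endothelial nuclei Ednrb was 108, 105 and 123 CPM in the sham mice, 128, 188 and 139 CPM in the I/R mice and 314, 214 and 153 CPM in the SBP mice. The SBP mice were above all sham mice, at 0.95 on the log2 scale (SE 0.23, limma adjusted p = 0.0639), just outside the threshold, and SBP 1 was the highest mouse. The call was gained without I/R 2 (adjusted p = 0.0446) or SBP 3 (0.0370). Endocardial nuclei, where Ednrb was highest, were 656 of 1669 endothelial nuclei in SBP 1 and 449 of 1321 in I/R 2, the highest mice of their groups, but 451 of 1234 in sham 1 and 269 of 1573 in sham 3. The part of this share in the values was not tested. In capillary nuclei the ranges overlapped, at 0.11 on the log2 scale (SE 0.36, limma adjusted p = 0.924) for SBP against sham. In lymphatic nuclei, which were not fitted, the sham mice lay between 15.3 and 32.5 CPM and the I/R and SBP mice between 48.7 and 119.8 CPM, without overlap, on 2 to 26 UMIs per mouse.

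In myeloid nuclei Ednrb was 87.2, 65.2 and 78.4 CPM in the sham mice, 103, 84.8 and 171 CPM in the I/R mice and 87.7, 108 and 161 CPM in the SBP mice. I/R 2 lay within the sham range and SBP 1 just above it, the other 4 ligated mice were higher, and the changes were 0.58 on the log2 scale (SE 0.27, limma adjusted p = 0.167) for I/R and 0.58 on the log2 scale (SE 0.27, limma adjusted p = 0.184) for SBP against sham, neither of which passed. Within the cluster led by Cd163, a marker of resident macrophages, the medians were 84.5 CPM in sham, 112 CPM in I/R and 102 CPM in SBP mice, with overlapping ranges.

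Ace fell in fibroblasts of both ligated groups. In fibroblasts the level of Ace was 214, 70.2 and 166 CPM in the sham mice, 34.7, 41.6 and 50.5 CPM in the I/R mice and 30.9, 41.4 and 56.0 CPM in the SBP mice. Every I/R and SBP mouse was below every sham mouse, and sham 2 was the lowest of the sham mice. The change was -1.68 on the log2 scale (SE 0.37, limma adjusted p = 0.0168) for I/R and -1.69 on the log2 scale (SE 0.37, limma adjusted p = 0.0246) for SBP against sham, while SBP against I/R was -0.01 on the log2 scale (SE 0.37, limma adjusted p = 0.999). The 2 called contrasts share the sham mice. The I/R call did not hold without sham 3 (adjusted p = 0.067) or I/R 2 (0.06), and the SBP call did not hold without sham 1 (0.0725), sham 3 (0.0972), SBP 1 (0.0929) or SBP 2 (0.0926), or with only the 6 mice compared (0.0621).

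Within the Lvrn-led cluster, which held most fibroblasts of every group, Ace ranged from 69.7 to 209 CPM in sham, 47.5 to 51.9 CPM in I/R and 29.1 to 64.3 CPM in SBP mice. The change there was -1.38 on the log2 scale (SE 0.38, limma adjusted p = 0.0757) and -1.52 on the log2 scale (SE 0.38, limma adjusted p = 0.0965), so neither was called. In the Tnc-led cluster, where sham mice had 2 to 4 nuclei each, Ace was at 21.8 to 44.8 CPM in I/R and 20.1 to 34.2 CPM in SBP mice. The summed level of 8 fibroblast markers in fibroblast nuclei moved the other way, from 4150 to 6325 CPM in sham to 7672 to 8874 CPM in I/R and 6227 to 7610 CPM in SBP mice. Its part in the Ace values was not tested.

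In arterial endothelium, the other main site of Ace, no change passed the test, and the fold changes against sham were positive. In arterial nuclei the level of Ace was 159, 34.9 and 117 CPM in the sham mice, 181, 198 and 196 CPM in the I/R mice and 150.1, 194 and 159 CPM in the SBP mice. Sham 2 had 4 Ace UMIs and stood below the other 2 sham mice. The change was 1.13 on the log2 scale (SE 0.42, limma adjusted p = 0.194) for I/R and 0.94 on the log2 scale (SE 0.42, limma adjusted p = 0.347) for SBP against sham, neither called, and -0.20 on the log2 scale (SE 0.42, limma adjusted p = 0.999) for SBP against I/R. In capillary nuclei Ace ranged from 18.0 to 51.1 CPM and in endocardial nuclei from 5.30 to 20.1 CPM over all mice, with changes from sham to I/R of 0.40 on the log2 scale (SE 0.33, limma adjusted p = 0.588) and -0.18 on the log2 scale (SE 0.44, limma adjusted p = 0.903). The counts per mouse were 4 to 34 Ace UMIs in arterial nuclei.

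Agtr1a, through which angiotensin II acts on heart muscle, was lower in cardiomyocytes of 2 of the I/R mice. In cardiomyocytes the level of Agtr1a was 176, 164 and 149.6 CPM in the sham mice, 153, 96.6 and 99.1 CPM in the I/R mice and 131, 135 and 151 CPM in the SBP mice. I/R 2 and I/R 3 were the lowest of the 9 mice and I/R 1 lay within the sham range; I/R 1 held 822 nuclei of the Gm17428-led cluster against 1 and 34 in the other I/R mice. The change was -0.52 on the log2 scale (SE 0.19, limma adjusted p = 0.252) for I/R, which was called without I/R 1 (-0.73, adjusted p = 0.0243), -0.23 on the log2 scale (SE 0.19, limma adjusted p = 0.626) for SBP against sham and 0.29 on the log2 scale (SE 0.19, limma adjusted p = 1.00) for SBP against I/R. Within the Fstl4-led cluster the level of Agtr1a before scaling ranged from 122 to 137 CPM in sham, 64.2 to 102 CPM in I/R and 123 to 153 CPM in SBP mice. The fit used scaled values. There the change was -0.37 on the log2 scale (SE 0.21, limma adjusted p = 0.399) for I/R against sham and 0.72 on the log2 scale (SE 0.21, limma adjusted p = 1.00) for SBP against I/R. In the Gm17428-led cluster Agtr1a ranged from 148 to 177 CPM in sham, 124 to 170 CPM in 2 I/R mice and 130 to 147 CPM in 2 SBP mice, with -0.04 on the log2 scale (SE 0.27, limma adjusted p = 0.966) for SBP against I/R.

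The 3 called changes of Agtr1a were in cells with few Agtr1a UMIs. In myeloid nuclei the level of Agtr1a was 27.5, 24.0 and 16.7 CPM in the sham mice, 11.7, 9.04 and 6.99 CPM in the I/R mice and 7.11, 8.19 and 6.40 CPM in the SBP mice. Every sham mouse was above every I/R and SBP mouse, and the groups held 68, 98 and 45 Agtr1a UMIs. The change was -1.21 on the log2 scale (SE 0.29, limma adjusted p = 0.014) for I/R and -1.50 on the log2 scale (SE 0.29, limma adjusted p = 0.00578) for SBP against sham. The I/R call did not hold without sham 1 (adjusted p = 0.054) or sham 2 (0.0504). Myeloid nuclei of sham mice came mostly from the Cd163-led cluster and those of I/R mice mostly from a cluster led by Gpnmb and Adam8. Within the Cd163-led cluster neither change was called, at -0.81 on the log2 scale (SE 0.41, limma adjusted p = 0.34) for I/R and -1.23 on the log2 scale (SE 0.41, limma adjusted p = 0.167) for SBP against sham. In all endothelial nuclei Agtr1a was 22.2, 32.3 and 20.9 CPM in the sham mice, 18.7, 10.4 and 14.1 CPM in the I/R mice and 11.4, 10.1 and 10.8 CPM in the SBP mice, with every sham mouse above every other mouse, and the change was -1.13 on the log2 scale (SE 0.25, limma adjusted p = 0.0388) for SBP against sham and -0.77 on the log2 scale (SE 0.25, limma adjusted p = 0.12), not called, for I/R. The endothelial call did not hold without sham 1 (adjusted p = 0.0755), sham 2 (0.162), sham 3 (0.0897), SBP 1 (0.113), SBP 2 (0.105) or SBP 3 (0.117), with the replicate block (0.0697), with high-scoring nuclei removed (0.0736) or with types from marker scores (0.0854).

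Markers of cardiomyocytes, where Agtr1a was highest, moved with these changes. The summed level of 8 cardiomyocyte markers, all 8 of them present in every group, was 6487 to 7425 CPM in myeloid nuclei of sham, 1957 to 3037 CPM of I/R and 2071 to 2645 CPM of SBP mice. In endothelial nuclei it was 8167 to 9975, 3237 to 5746 and 3014 to 3782 CPM. Per 1000 cardiomyocyte marker UMIs there were 3.14, 3.78 and 3.40 Agtr1a UMIs in myeloid nuclei and 2.75, 3.17 and 3.17 in endothelial nuclei of sham, I/R and SBP mice, beside 2.93 in I/R and 3.63 in SBP cardiomyocytes, with sham cardiomyocytes between these. These 9 ratios lay between 2.75 and 3.78. In sham, I/R and SBP mice T cells had 2.24, 1.94 and 1.96 and B cells 2.47, 0 and 0, on at most 7 Agtr1a UMIs per group. The part of cardiomyocyte transcripts in the Agtr1a changes was not tested. Fibroblasts had 4.27, 7.87 and 7.60 Agtr1a UMIs per 1000, above the cardiomyocyte ratio, and Agtr1a in fibroblasts was not called, at -0.42 on the log2 scale (SE 0.26, limma adjusted p = 0.344) and -0.60 on the log2 scale (SE 0.26, limma adjusted p = 0.218) against sham.

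**Figure D4:**
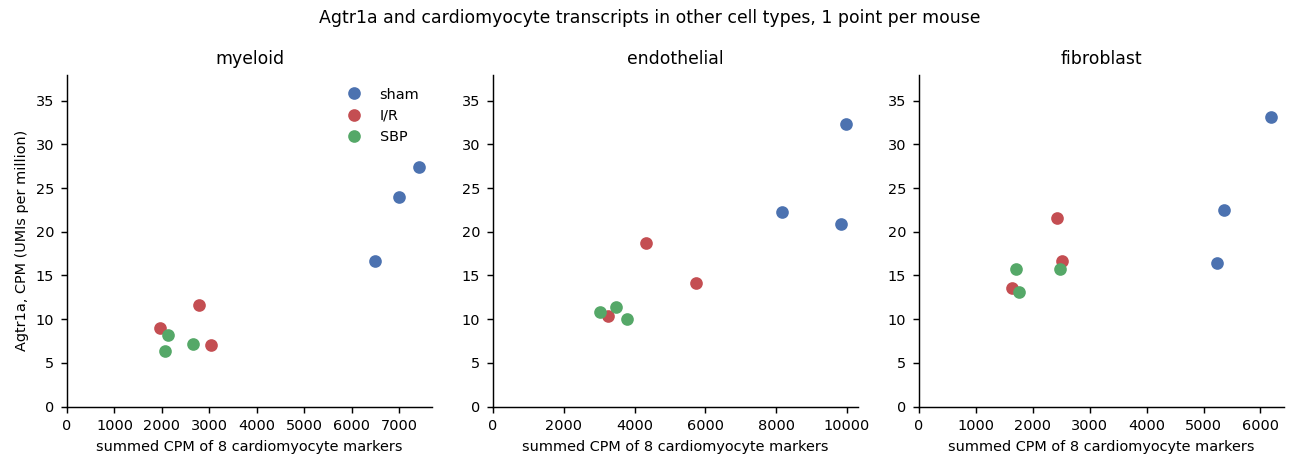
Agtr1a level (CPM) against the summed level of 8 cardiomyocyte markers (CPM) in myeloid, endothelial and fibroblast nuclei, 1 point per mouse, coloured by group. Sham mice lie to the right, at higher marker sums, in all 3 cell types, and also higher in Agtr1a in myeloid and endothelial nuclei. In fibroblasts the sham mice lie above the SBP mice in Agtr1a but overlap the I/R mice.

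Smooth muscle cells and pericytes had 2.51, 10.8 and 10.8 Agtr1a UMIs per 1000 cardiomyocyte marker UMIs in sham, I/R and SBP mice. Their Agtr1a level was 22.8 and 27.3 CPM in 2 sham mice, 93.1 and 78.6 CPM in 2 I/R mice and 91.8 CPM in 1 SBP mouse. The sham mice were the lowest, and the change of 1.74 on the log2 scale (SE 0.86, limma adjusted p = 0.972) for I/R against sham did not pass, in 5 mice with 20 to 42 of these nuclei each.

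Nos3, the source of endothelial nitric oxide, did not pass the test in any cell type. In all endothelial nuclei the level of Nos3 was 281, 273 and 242 CPM in the sham mice, 173, 364 and 212 CPM in the I/R mice and 465, 178 and 241 CPM in the SBP mice. The sham mice lay close together, and I/R and SBP mice spread to both sides of them, with I/R 2 and SBP 1 the highest of their groups. The change was -0.16 on the log2 scale (SE 0.34, limma adjusted p = 0.851) for I/R, 0.04 on the log2 scale (SE 0.34, limma adjusted p = 0.977) for SBP against sham and 0.19 on the log2 scale (SE 0.34, limma adjusted p = 0.989) for SBP against I/R. I/R 2 and SBP 1 were also the highest of their groups in arterial nuclei, at 603 and 847 CPM, and in endocardial nuclei, at 584 and 662 CPM. In arterial nuclei, SBP against sham was 0.93 on the log2 scale (SE 0.38, limma adjusted p = 0.293), with the SBP mice at 389 to 847 CPM above the sham mice at 253 to 342 CPM. Capillary nuclei stayed between 159 and 230 CPM in all mice, with -0.07 on the log2 scale (SE 0.16, limma adjusted p = 0.878) for I/R against sham. Nos3 overlaps the antisense gene Gm15587 and the gene Atg9b on the other strand, which had 169 and 47 UMIs in endothelial nuclei, and use of strand in the counting is not stated.

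SBP against I/R, the contrast that asks what the drug changed in ligated hearts, gave 0 calls in 48 tests of these genes by limma. Over all genes, 0% were called in every cell type. Of the 48 tests, which are not independent, 4 had an unadjusted p below 0.05 by limma. That was a larger share than the 4.05% of 75289 tests of all genes in this contrast. The 4 tests were Ednrb in endocardial nuclei (log2 change 0.76) and in all endothelial nuclei (0.54), both higher in SBP, and Edn1 in arterial nuclei (-1.10) and in fibroblasts (-1.10), both lower in SBP. The lowest adjusted p was 0.751. In endocardial Ednrb, arterial Edn1 and fibroblast Edn1, picked here for their p, the 3 SBP mice did not overlap the 3 I/R mice. Nor did they for Ednra in cardiomyocytes, higher in SBP, and Ednrb in T cells, lower in SBP. The T cell means were 21.0 CPM in SBP and 31.1 CPM in I/R mice, on only 5 and 9 UMIs. The share of all genes without such overlap was not counted, so this is a description.

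Of 41 further genes of the endothelin, renin-angiotensin, kinin and nitric oxide pathways and of receptor coupling, 39 were among the genes measured. By limma, none of 26 tested in cardiomyocytes, 26 in all endothelial nuclei, 12 in smooth muscle cells and pericytes, 24 in endocardial or 9 in arterial nuclei was called in any contrast. In fibroblasts, 4 of 28 fell and none rose in I/R against sham, where 11.7% of all genes were called, and none was called in SBP against sham, where 6.14% were. Their median log2 change in I/R against sham was -0.10 beside -0.01 over all fibroblast genes tested. The 4 that fell were Gucy1a2, a subunit of the nitric oxide receptor guanylate cyclase (log2 change -1.29, adjusted p = 0.00266), Plcb4, a phospholipase C (log2 change -0.79, adjusted p = 0.00527), Arrb1, a beta-arrestin (log2 change -0.77, adjusted p = 0.017), and Gna12, a G protein subunit (log2 change -0.71, adjusted p = 0.0186). Gucy1a2 lay at 428 to 455 CPM in sham, 145 to 276 CPM in I/R and 259 to 303 CPM in SBP fibroblasts. In the same fibroblast nuclei the summed level of 8 cardiomyocyte markers went from 5243 to 6194 CPM in sham to 1642 to 2517 CPM in I/R and 1711 to 2473 CPM in SBP mice, and the Tnc-led cluster was nearly absent in sham mice. The part of either in these values was not tested.

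In myeloid nuclei, 2 of 24 of these genes rose and 4 fell in I/R against sham, and 1 rose and 3 fell in SBP against sham, where 17.6% and 12.5% of all myeloid genes were called. Their median log2 change was -0.21 in I/R against sham beside 0.09 over all myeloid genes tested. Nr3c2, the mineralocorticoid receptor, through which aldosterone acts downstream of angiotensin II, fell from 207 to 226 CPM in sham to 61.2 to 77.8 CPM in I/R and 87.6 to 116 CPM in SBP mice (log2 change -1.60, adjusted p = 7.1e-05 and log2 change -1.05, adjusted p = 0.00136). Plcb1, the phospholipase C coupled to both receptor families, rose from 112 to 181 CPM in sham to 350 to 744 CPM in I/R and 417 to 555 CPM in SBP mice (log2 change 1.67, adjusted p = 0.00202 and log2 change 1.76, adjusted p = 0.00197). Lnpep, an aminopeptidase that binds angiotensin IV, also rose in I/R (log2 change 0.55, adjusted p = 0.0243). Cav1, Plcb4 and Gucy1a2 fell in I/R and Plcb4 and Gucy1a1 in SBP mice. Sham mice held 7 to 14 nuclei each of the Gpnmb-led myeloid cluster, to which most myeloid nuclei of I/R mice belonged. Beside the fall in cardiomyocyte markers given above, the summed level of 8 endothelial markers in myeloid nuclei was 358 to 389 CPM in sham, 213 to 268 CPM in I/R and 210 to 386 CPM in SBP mice. The part of these shifts in the pathway genes was not tested.

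In capillary endothelium 1 of 25 pathway genes tested was called for each ligated group against sham, near the 4.35% and 2.5% of all capillary genes called. Plcb1 rose from 1716 to 2081 CPM in sham to 2704 to 3472 CPM in I/R and 2733 to 3537 CPM in SBP mice (log2 change 0.72, adjusted p = 0.02 and log2 change 0.67, adjusted p = 0.04). The groups with ligation did not overlap sham. In capillary nuclei the summed cardiomyocyte markers were 11032 to 11937 CPM in sham, 4171 to 6666 CPM in I/R and 4023 to 5116 CPM in SBP mice, the fibroblast markers 883 to 1105, 1329 to 1918 and 1406 to 1591 CPM, and the myeloid markers 348 to 535, 689 to 1080 and 466 to 696 CPM. Their part in the values of Plcb1 and Edn1 was not tested. Called or not, 84 of 522 tests of pathway genes, pooled over the 3 contrasts and most of the 84 against sham, had an unadjusted p below 0.05 by limma. Over all genes it was 19.3%, 4.05% and 16.8% of the tests in the single contrasts.

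Across 94 sums of mouse and cell type, the genes whose log2 level was most like that of each gene were found by Pearson correlation over 12002 genes, as a description. The sums share libraries, and endothelial sums contain their subtypes. Edn1 was most like Sh3bp4 (r = 0.79), Heg1 (0.79) and Mecom (0.78), and Ece1 most like Rbms1 (0.87), Mcu (0.87) and Nxn (0.86). Ednra was most like Garem1 (0.71), Gm50321 (0.71) and Ppp1r12b (0.69), and Ednrb most like Tmem164 (0.75), Rsu1 (0.74) and Klhl5 (0.73). Ace was most like Cyth3 (0.77), St6galnac2 (0.77) and Arl15 (0.75), Agtr1a most like Asb14 (0.73), Mlf1 (0.73) and Mypn (0.70), and Nos3 most like Rasip1 (0.90), Shank3 (0.88) and Gata2 (0.88). The correlations of Ece1 and Nos3 were the highest of the 7 genes and those of Ednra the lowest, and Agt was too low to be compared.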

How the data were processed

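The study's authors isolated nuclei from frozen hearts and made 10x Genomics libraries. Per the study's methods, reads were aligned to mm10 with CellRanger, libraries were down-sampled, nuclei with few genes or a high mitochondrial share were removed, and Seurat and fastMNN followed. The submitters' processing notes name Cell Ranger 4.0, STAR, Seurat 3.2.0 and GRCm38, and the methods give other versions of Cell Ranger and Seurat. The deposited values are natural log values, the natural log of 1 plus 10000 times a gene's UMIs over the nucleus's total. The UMI counts were recovered from them, with at least 99.9994% of values within 0.1 of a whole number. Mitochondrial genes are not among the deposited genes, and fewer nuclei are deposited than the study describes.

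Nuclei were clustered (scanpy 1.11.5, 2000 variable genes without the 8 genes, 30 components, 20 neighbours, resolution 0.5) and named from marker lists, endothelial nuclei a second time (20 components, resolution 0.2). Clustering settings were chosen after seeing the data. A doublet caller marked 85 nuclei (0.173%), too few to have worked; they were removed, and doublets may remain. UMIs were summed per mouse and type (at least 20 nuclei) and scaled by trimmed mean factors (TMM, 0.856 to 1.17). Genes with the CPM of 10 UMIs in the median library in at least 3 sums, and 15 UMIs in all, were tested. The test was limma 3.58.1 (trend, robust) on log2(CPM + 1), with all 9 mice in the fit. Because of the 1 added to CPM, fold changes of low genes are understated. The fit was tested on simulated data. Smooth muscle cells and pericytes came from 5 mice and 1 SBP sample, which is assumed to vary like the other groups.

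All 8 genes are named, with tests in the types known to express them, in endothelial subtypes and wherever called, and pathway genes are named where called, at most 6 per type and contrast. Values for other pairs of gene and type, for genes that lead clusters and for single alternatives were chosen after their values were seen. The 8 genes, the pathway and marker lists and the tests were chosen with earlier results of these data known. Each of 9 libraries is a different mouse per the study, and p-values measure the spread between these samples. Same-numbered samples of different groups had correlations of their deviations from the group mean between -0.56 and 0.36 over cell types. For differently numbered samples they lay between -0.33 and 0.55. The highest was that of I/R 2 and SBP 1 in endocardial nuclei, and what these mice shared was not tested. All 3 sham and SBP pairs were above 0.1 in fibroblasts (0.162 to 0.297) and myeloid nuclei (0.174 to 0.267) but not in the other types, and the labels name nothing shared by a number, so the numbers were not taken to pair the mice. Alternatives were scaling to total UMIs, no filter, a pseudocount of 5, each mouse left out, a replicate block, only the 6 mice compared, doublets kept, high-scoring nuclei removed at 0.8% per 1000 nuclei, types from marker scores and the 8 genes kept for clustering. Fits within single clusters were added after seeing the data. Promoters came from a RefSeq table and gene positions from GENCODE; protein sequences and promoters of Agtr1a and Nos3 were not used here.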

Additional observations from a re-analysis of the deposited data

Results flagged for a closer look

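Ace levels of sham and I/R mice separated in opposite directions in arterial endothelium and in fibroblasts. Every I/R mouse was above every sham mouse in arterial nuclei (181 to 198 against 34.9 to 159 CPM) and below every sham mouse in fibroblasts (34.7 to 50.5 against 70.2 to 214 CPM). The difference of the 2 log2 changes was 2.81. Per mouse, the log2 ratio of arterial to fibroblast Ace was 1.93 to 2.35 in I/R and -0.99 to -0.43 in sham mice. The pair was chosen for this separation, so the difference is a description: an exact permutation test on it could give only 0.1, the smallest p for 3 against 3 mice, and supports nothing. The arterial change itself did not pass the test, and sham arterial nuclei held 4 to 14 Ace UMIs per mouse.

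Ednra levels lay in opposite directions in cardiomyocytes and myeloid nuclei, without a change that passed the test in either. From sham to I/R every mouse of one group was separate from the other in both types, higher in I/R cardiomyocytes and lower in I/R myeloid nuclei (8.74 to 18.4 against 20.3 to 27.5 CPM). The difference of the log2 changes was 1.42, a description of the same kind. In the same myeloid nuclei the summed level of 8 cardiomyocyte markers went from 6487 to 7425 CPM in sham to 1957 to 3037 CPM in I/R mice. Per 1000 cardiomyocyte marker UMIs, Ednra was higher in I/R than in sham mice in both types, at 5.55 against 3.46 UMIs in myeloid nuclei and 6.90 against 3.83 UMIs in cardiomyocytes. Dixon's test for single outlying samples was not applied to these groups of 3 mice.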

How the results depend on the processing

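Counts of the 8 genes called, summed over the 3 contrasts, were small and moved with single settings. Leaving out each mouse in turn gave 0 to 1 in cardiomyocytes (0 with all mice), 0 to 2 in endothelial nuclei (1), 0 to 3 in fibroblasts (2), 1 to 2 in myeloid nuclei (2), 0 to 1 in capillary (1) and 0 to 1 in endocardial nuclei (1). With no filter on low genes, 2 were called in endothelial and 2 in endocardial nuclei. With only the 6 mice compared there were 2 in endothelial nuclei, 1 in fibroblasts and 0 in capillary nuclei. Removing the highest-scoring nuclei left 0 in endothelial and 0 in capillary nuclei, and types from marker scores, which gave 83.0% of nuclei the same type, left 0 in endothelial, 0 in capillary, 0 in endocardial and 1 in arterial nuclei. The replicate block left 0 in endothelial and 0 in endocardial nuclei, where Agtr1a and Ednrb had adjusted p of 0.0697 and 0.0563; the other 5 calls held with the block.

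Over 18 alternatives, the call of Agtr1a in myeloid nuclei held in 18 for SBP and 16 for I/R against sham, Ace in fibroblasts in 16 for I/R and 13 for SBP, Ednrb in endocardial nuclei in 12, and Edn1 in capillary and Agtr1a in endothelial nuclei in 9 each. Fits within single clusters, added after seeing the data, ended both Agtr1a calls in the Cd163-led myeloid cluster (I/R -0.81, adjusted p = 0.340, and SBP -1.23, 0.167) and both Ace calls in the Lvrn-led fibroblast cluster (-1.38, 0.0757, and -1.52, 0.0965). The Ace call of SBP against sham had an adjusted p of 0.0621 with the 6 mice alone. Marker scores ended the calls of Edn1 in capillary (log2 change 2.25, adjusted p = 0.114), Ednrb in endocardial (1.06, 0.0835) and Agtr1a in endothelial nuclei (-1.07, 0.0854), with changes near the reported 2.05, 1.15 and -1.13, and the doublet alternative that of Edn1 (0.0818) and Agtr1a in endothelium (0.0736). No called change turned direction. Beside those gained by leaving out a mouse, calls gained were Ednrb in endothelial nuclei, SBP against sham (no filter, 0.0440, and only the 6 mice compared, 0.04996), Ece1 in endocardial nuclei, I/R against sham (no filter, 0.0276), Edn1 in arterial nuclei (1.28, 0.0361) and Ednrb in fibroblasts (0.95, 0.0468), both I/R against sham with marker scores. The cause of these differences was not tested. No replicate block fit or high-scoring alternative could be had for smooth muscle cells and pericytes. Agt (at most 49 UMIs in a cell type), Edn1 in capillary nuclei (223 UMIs) and Agtr1a in myeloid nuclei (45 to 98 UMIs per group) rest on few counts, and whether depth or the spread between mice limits them was not tested.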

Other observations

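Other genes of the 2 systems, named here after their values were seen, were mostly low in nuclei. Edn2 and Edn3, the other endothelin ligands, had at most 15 UMIs in cardiomyocytes, endothelial nuclei, fibroblasts or myeloid nuclei over all mice. Mas1, the receptor of angiotensin 1-7, lay highest in cardiomyocytes, at a median of 6.97 CPM over 9 mice (2.92 to 13.4). Mme, neprilysin, which degrades endothelin-1 and natriuretic peptides, had 65.1 CPM in fibroblasts (42.2 to 108) against 5.14 CPM in cardiomyocytes and 3.66 CPM in endothelial nuclei. Nostrin, which binds NOS3, had 106 CPM in endothelial nuclei (79.6 to 132) and 51.3 CPM in myeloid nuclei (33.6 to 64.3). Nos2, the inducible nitric oxide synthase, ranged from 0 to 100.5 CPM over mice in myeloid nuclei, with a median of 0.30 CPM.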
